A study of Mus musculus with 17 samples.

Results

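Globins and erythroid genes report on the red blood cells that lie within a tissue, and here they were followed in whole fetal and newborn mouse testes that lacked or carried inhibin alpha. The set held 9 genes, found by name in the deposited gene table: the embryonic globins Hba-x, Hbb-y and Hbb-bh1, the adult globins Hba-a1, Hba-a2, Hbb-bs and Hbb-bt, the heme enzyme gene Alas2 and the red cell membrane gene Slc4a1. These were 9 of the 19110 genes listed, and all 9 passed the filter on low counts. RNA sequencing covered 17 libraries of testes from C57/Bl6 mice bred from heterozygous parents, with knockout (KO) testes set beside wild type (WT) littermate testes at 3 ages. At E13.5 (E, embryonic day) there were 2 KO and 3 WT libraries, at E15.5 there were 3 KO and 3 WT libraries, and on the day of birth (postnatal day, PND 0) there were 3 KO and 3 WT libraries. KO mice lacked the sequence encoding the mature inhibin alpha subunit (Inha), the subunit that pairs with a beta subunit to make inhibin, a gonadal hormone that opposes activin. The deletion is constitutive, so it was present in every cell of the KO animals, blood cells included. No treatment was given to either genotype. The labels do not say whether a library came from 1 animal or several, nor which libraries shared a litter, so p-values measure the spread between these libraries.

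Hemoglobin is built from paired alpha-type and beta-type globin chains, each holding a heme. In mouse embryos the first red cells arise in the yolk sac and enter the blood as large nucleated primitive cells, which carry the embryonic chains zeta (Hba-x), epsilon-y (Hbb-y) and beta-h1 (Hbb-bh1). Later red cells mature in the fetal liver, carry the adult chains and replace the primitive cells in the circulation, a change known as the hemoglobin switch. Alas2 encodes the erythroid form of the enzyme that starts heme synthesis. Slc4a1 encodes band 3, the anion exchanger that also anchors the red cell skeleton to the membrane. The testis is not known as a site where red cells are made, and a whole testis is sampled with the blood in its vessels. In bulk RNA of this kind fewer cells of a type and less RNA per cell cannot be told apart.

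The genes lie in 2 clusters and at 2 single loci (GRCm38, GENCODE annotation). On chromosome 7, minus strand, Hbb-y (ENSMUSG00000052187, chr7:103851749-103853216) comes first in the direction of transcription, followed by Hbb-bh1 (ENSMUSG00000052217, chr7:103841637-103843164), Hbb-bs (ENSMUSG00000052305, chr7:103826534-103828096) and Hbb-bt (ENSMUSG00000073940, chr7:103812524-103813996). On chromosome 11, plus strand, the order is Hba-x (ENSMUSG00000055609, chr11:32276400-32278116), Hba-a1 (ENSMUSG00000069919, chr11:32283511-32284465) and Hba-a2 (ENSMUSG00000069917, chr11:32296489-32297298). Slc4a1 (ENSMUSG00000006574, chr11:102348824-102366203) is far away on the minus strand of the same chromosome, and Alas2 (ENSMUSG00000025270, chrX:150547375-150570638) is X-linked. All 9 are annotated as protein coding, and each globin has 3 exons. In both clusters the embryonic gene stands before the adult genes.

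The adult globins come as near-identical pairs, and the stretches below show the only base at which the coding sequences differ, in capitals, so that a reader can judge how far reads could separate them. The difference between Hba-a1 and Hba-a2 is C381T, and that between Hbb-bs and Hbb-bt is C417T, counted from 1 at the start codon with the base of the first-named gene first. Each stretch is coding sequence of the last exon, taken from the GENCODE transcripts and written 5′ to 3′ on the coding strand.
Hba-a1, chr11:32284323-32284363: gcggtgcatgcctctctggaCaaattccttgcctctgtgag
Hba-a2, chr11:32297140-32297180: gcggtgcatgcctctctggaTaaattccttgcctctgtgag
Hbb-bs, chr7:103826672-103826712: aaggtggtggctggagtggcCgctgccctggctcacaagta
Hbb-bt, chr7:103812663-103812703: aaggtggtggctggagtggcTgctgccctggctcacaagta
Of the 100-base windows of the main transcript, the share found in no other member was 43.5% for Hba-a1, 25.5% for Hba-a2, 37.4% for Hbb-bs and 45.2% for Hbb-bt, against 100% for each of the other 5 genes. The split of counts within each adult pair is therefore uncertain. How reads that fit both genes of a pair were counted is not given. The adult totals may therefore be too low beside the embryonic genes. Coding identity was much lower across the switch: 74.4% between Hbb-y and Hbb-bs, and 61.7% between Hba-x and Hba-a1, so the embryonic and adult genes were told apart by their reads.

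The 100 bases before the start of 2 embryonic and 2 adult globins are shown next, since the embryonic genes fell with age where Hbb-bs rose (RefSeq, GRCm38.p6, coding strand, 5′ to 3′), with capitals for the TATA box core TATAA, then for the CAAT box CCAAT, then for CACCC and last for GATA, all searched on both strands. No matches overlapped in these 4 windows. The starts are those of RefSeq and differ from the GENCODE bounds given above. The windows of Hba-x, Hba-a1 and Hbb-bs lie inside those bounds, and that of Hbb-y overlaps them in part.
Hba-x, chr11:32276500-32276599: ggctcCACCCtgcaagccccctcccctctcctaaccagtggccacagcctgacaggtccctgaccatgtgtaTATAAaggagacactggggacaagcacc
Hbb-y, chr7:103853208-103853307: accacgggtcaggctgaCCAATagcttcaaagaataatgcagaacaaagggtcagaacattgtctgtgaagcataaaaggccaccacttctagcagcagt
Hba-a1, chr11:32283572-32283671: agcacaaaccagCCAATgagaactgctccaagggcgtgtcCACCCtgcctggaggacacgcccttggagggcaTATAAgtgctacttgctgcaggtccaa
Hbb-bs, chr7:103827929-103828028: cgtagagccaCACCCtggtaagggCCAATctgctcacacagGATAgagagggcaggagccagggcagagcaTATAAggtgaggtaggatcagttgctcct
CACCC is the core of the element that Klf1 binds and GATA the core that Gata1 binds. Promoters of 7 of the 9 genes were in the table, all but those of Hbb-bh1 and Slc4a1. The 4 adult globins held both CCAAT and CACCC and the other 3 genes did not, the combination being found in 4.67% of the 32851 promoter windows of this length. The windows of Hba-a1 and Hba-a2 hold the same sequence at a small shift, and Hbb-bs and Hbb-bt are also near-identical genes. The 4 are therefore not independent instances of the combination. Singly, TATAA occurred in 10.2% of the windows, CCAAT in 18.9%, CACCC in 27.2% and GATA in 25% of them. These matches describe the letters in a short window.

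Each library held 21020002 to 22166752 counts in genes. Levels are given as CPM, counts scaled to a common library size, and 1 CPM stood for 20.95 to 22.89 counts. CPM values are scaled by edgeR's trimmed mean method throughout. Inha had 2 to 68 counts in KO libraries, against 7878 to 38565 counts in WT libraries, which fits the titles. Sertoli cell markers, which define a testis, summed to 2677 to 4284 CPM in KO libraries and 2532 to 4622 CPM in WT libraries. For the 3 E15.5 WT libraries a genotype field reads KO, and their titles and 11927 to 14672 Inha counts go against that field, so the titles were followed. The 9 genes took 0.306% and 0.385% of the counts in E13.5 KO libraries, against 0.246% to 0.366% in E13.5 WT libraries. They took 0.245% to 0.674% in E15.5 KO libraries, against 0.283% to 0.532% in E15.5 WT libraries. At PND 0 the share was 0.039% to 0.0631% in KO libraries, against 0.0335% to 0.0517% in WT libraries.

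At E15.5, replicate 2 of KO and replicate 2 of WT stood apart from the other 4 libraries in nearly every red cell gene, which bears on all results with E15.5. Their titles share a leading number whose meaning the labels do not give, and the pair was noticed from its values. Both libraries were above all 4 others for 35 of 36 tested genes of an erythroid list (27 of them with a mean at least 2-fold higher, median 3.90-fold), against 5.23% of all tested genes (0.59% at 2-fold or more). Slc4a1 was at 285.4 CPM in KO replicate 2 and 250.3 CPM in WT replicate 2, with 30.8 to 46.5 CPM in the other 4 libraries. Hemgn, a nuclear protein of maturing red cells, was at 39.8 and 37.9 CPM in the pair, with 1.23 to 4.50 CPM in the others. The transcription factors showed the same split: Klf1 was at 19.3 and 13.3 CPM in the pair and 1.497 to 3.06 CPM elsewhere. Gata1 was at 10.6 and 7.82 CPM in the pair and 1.70 to 3.04 CPM elsewhere. Cd44, an adhesion receptor that many other cells also carry, was the 1 exception. Of the 9 members, 6 were above the other libraries in both, and the 3 embryonic globins were not. No gene of the lists for endothelial cells, macrophages, neutrophils, Sertoli cells, Leydig cells, germ cells, mesonephros or liver behaved this way. Among 9 megakaryocyte genes only Gp9, part of a platelet receptor, did so. The liver gene Alb was at 0.376 and 0.138 CPM in the pair, with 0.0908 to 41.9 CPM in the others. That range reflects 1 library: liver markers summed to 94.5 CPM in E15.5 WT replicate 1. They summed to 16.1 CPM in WT replicate 3, 9.90 CPM in KO replicate 1 and 14.1 CPM in KO replicate 3.

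**Figure D1:**
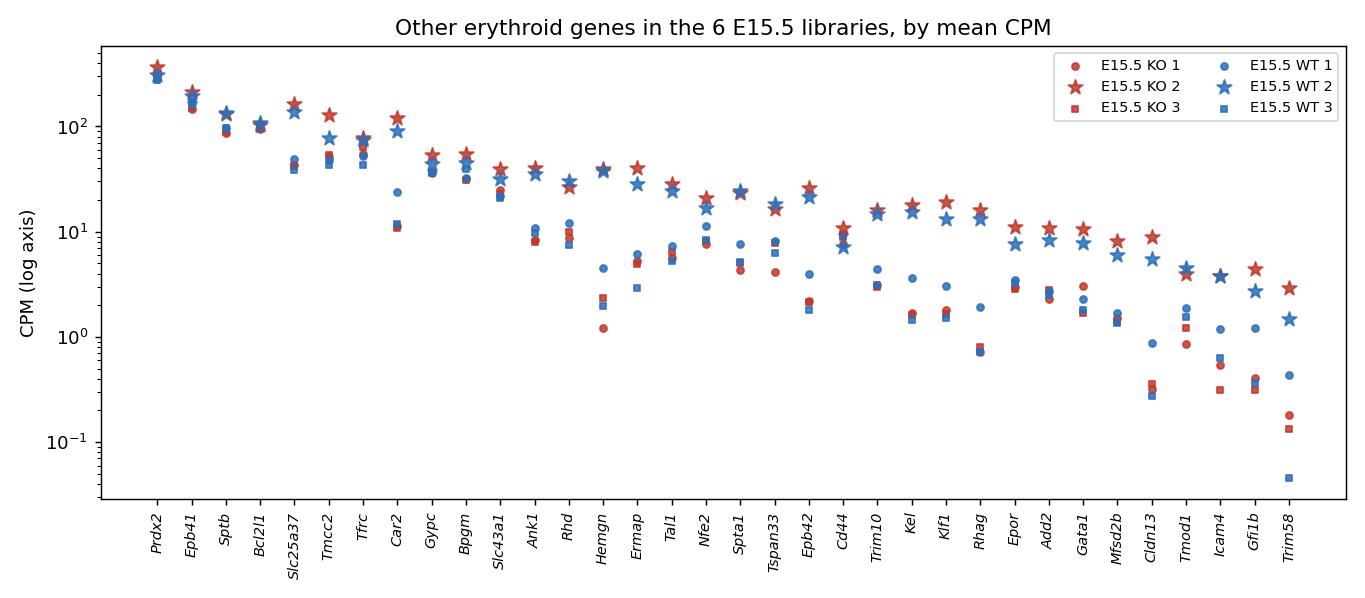
Levels of 34 of the 36 tested genes of the erythroid list in the 6 E15.5 libraries, in CPM on a log axis, with 1 gene per column, KO libraries in red, WT libraries in blue and replicate 2 of each drawn as a star. For 33 of the 34 genes drawn both stars lie above the other 4 points, Cd44 being the exception.

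The embryonic globins were abundant at E13.5 and all but gone by birth. Hbb-y, the main embryonic beta chain, was at 1563 and 1223 CPM in E13.5 KO libraries, against 790.1, 1287 and 300.2 CPM in E13.5 WT libraries. At E15.5 it was at 40.2, 39.0 and 13.4 CPM in KO libraries, against 31.8, 25.2 and 16.4 CPM in WT libraries. PND 0 left 1, 0 and 0 counts in KO libraries, against 1, 3 and 12 counts in WT libraries. The ages did not overlap in either genotype, and at every age the KO and WT values overlapped. Hba-x, the embryonic alpha chain, was at 582.7 and 685.4 CPM in E13.5 KO libraries, against 339.7, 483.6 and 139.3 CPM in E13.5 WT libraries. By E15.5 Hba-x was at 28.6, 31.6 and 11.7 CPM in KO libraries, against 21.8, 20.3 and 18.0 CPM in WT libraries. It had 3, 0 and 1 counts in PND 0 KO libraries, against 2, 0 and 8 counts in PND 0 WT libraries. Hba-x and Hbb-y thus kept the same order of ages, and E13.5 WT replicate 3 was the lowest E13.5 library for both. Hbb-bh1, the minor embryonic beta chain, was at 24.9 and 30.4 CPM in E13.5 KO libraries, against 12.6, 28.6 and 5.90 CPM in E13.5 WT libraries. Hbb-bh1 was at 1.23, 0.94 and 0.58 CPM in E15.5 KO libraries, against 0.393, 0.598 and 0.363 CPM in E15.5 WT libraries, and it had 0 counts in all 6 PND 0 libraries.

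The adult globins had their highest group means at E15.5 and fell by birth. Hbb-bs, an adult beta chain of the C57 haplotype, was at 495.0 and 302.0 CPM in E13.5 KO libraries, against 650.6, 618.9 and 927.2 CPM in E13.5 WT libraries. At E15.5 Hbb-bs was at 1167, 3145 and 1246 CPM in KO libraries, against 1391, 2435 and 1352 CPM in WT libraries. At PND 0 it was at 292.7, 216.6 and 299.4 CPM in KO libraries, against 245.0, 170.1 and 212.4 CPM in WT libraries. Replicate 2 was the highest E15.5 library of each genotype, and the KO libraries lay below the WT libraries only at E13.5. Hba-a1, an adult alpha chain, was at 990.7 and 651.7 CPM in E13.5 KO libraries, against 771.0, 965.2 and 823.0 CPM in E13.5 WT libraries. At E15.5 it was at 971.4, 2792 and 886.0 CPM in KO libraries, against 1087, 2074 and 1094 CPM in WT libraries. Hba-a1 ended at 217.9, 144.8 and 279.3 CPM in PND 0 KO libraries, against 216.6, 126.1 and 209.8 CPM in PND 0 WT libraries. KO and WT overlapped at all 3 ages. Outside the pair, Hba-a1 in E15.5 KO libraries lay within its E13.5 KO range, and in E15.5 WT libraries above every E13.5 WT library. Without the pair its log2 change was 0.18 in KO testes and 0.35 in WT testes (edgeR adjusted p = 0.681 and 0.355). The near-identical partners were lower in the counts. Hba-a2 ranged over 54.9 and 78.2 CPM in E13.5 KO libraries, 76.6 to 79.9 CPM in E13.5 WT libraries, 87.9 to 246.0 CPM in E15.5 KO libraries, 115.1 to 208.7 CPM in E15.5 WT libraries, 14.1 to 31.5 CPM in PND 0 KO libraries and 13.7 to 19.2 CPM in PND 0 WT libraries. Hbb-bt ranged over 17.5 and 42.4 CPM in E13.5 KO libraries, 34.2 to 47.4 CPM in E13.5 WT libraries, 53.2 to 201.7 CPM in E15.5 KO libraries, 85.7 to 200.5 CPM in E15.5 WT libraries, 7.72 to 11.4 CPM in PND 0 KO libraries and 4.76 to 11.3 CPM in PND 0 WT libraries.

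Alas2 followed the adult globins in time, and Slc4a1 was above its E13.5 level only in the E15.5 pair. Alas2, whose enzyme supplies heme to the growing chains, was at 46.0 and 35.7 CPM in E13.5 KO libraries, against 42.2, 44.2 and 52.7 CPM in E13.5 WT libraries. At E15.5 Alas2 was at 75.7, 186.3 and 72.3 CPM in KO libraries, against 71.5, 142.4 and 77.0 CPM in WT libraries. At PND 0 it was at 22.2, 15.53 and 23.1 CPM in KO libraries, against 19.0, 13.1 and 15.6 CPM in WT libraries. KO and WT overlapped at all 3 ages. Slc4a1 was at 56.2 and 52.8 CPM in E13.5 KO libraries, against 47.2, 51.1 and 87.3 CPM in E13.5 WT libraries. At E15.5 it was at 30.8, 285.4 and 33.8 CPM in KO libraries, against 46.5, 250.3 and 31.7 CPM in WT libraries. PND 0 brought Slc4a1 to 1.81, 1.52 and 2.14 CPM in KO libraries, against 2.21, 1.59 and 2.43 CPM in WT libraries. Only replicate 2 of each genotype lay above the E13.5 range of Slc4a1.

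**Figure D2:**
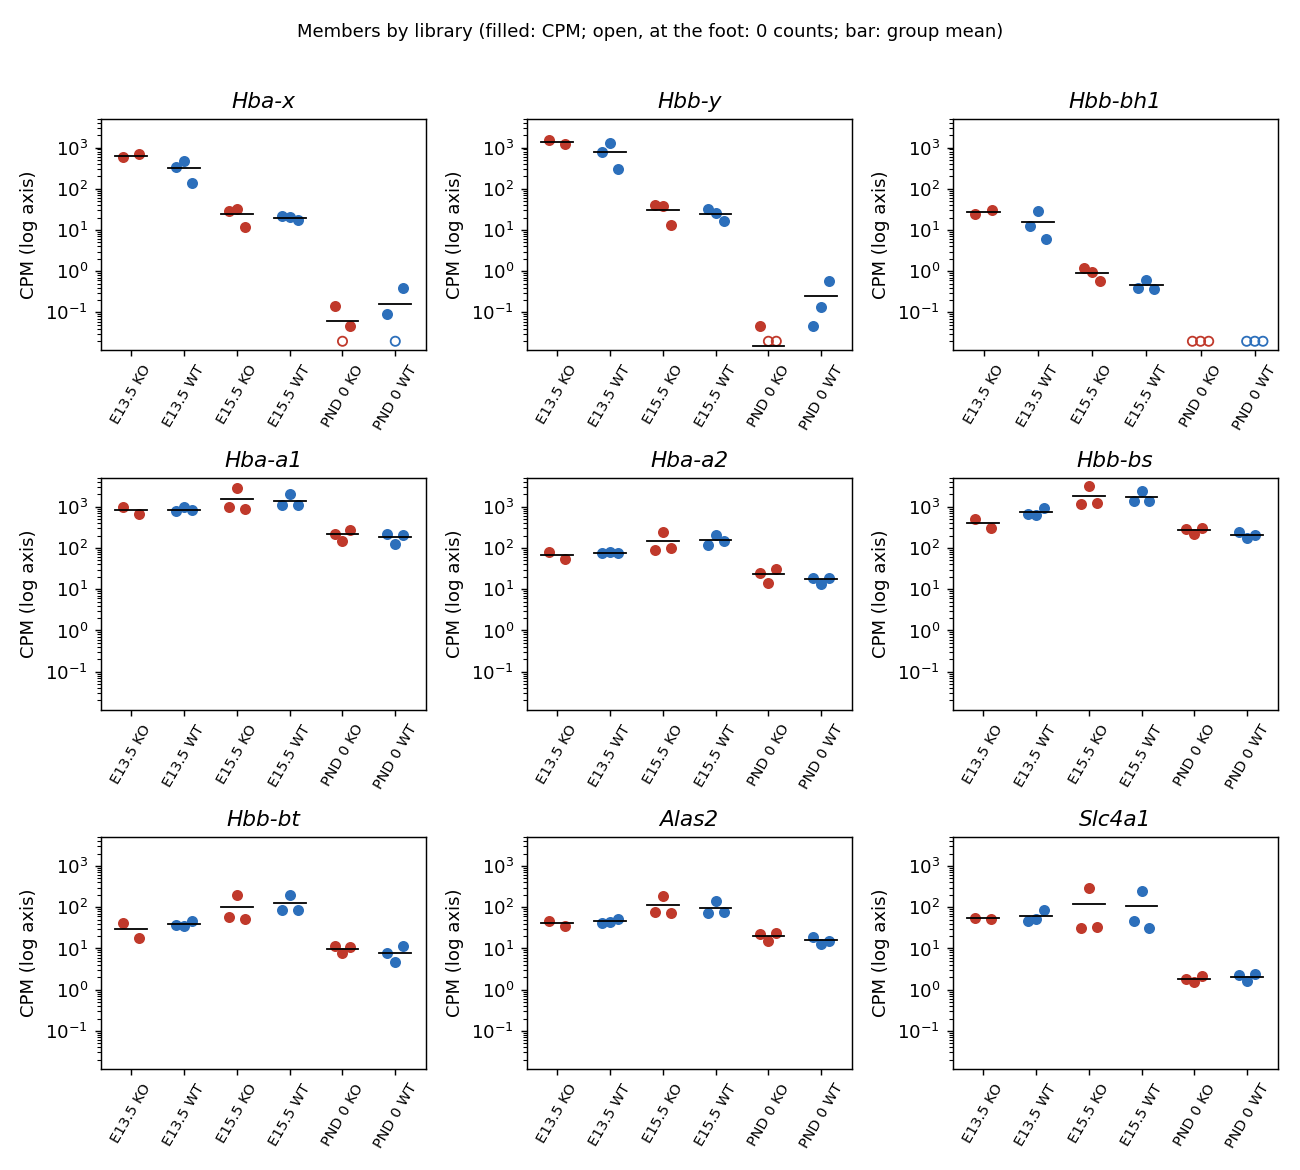
Level of each of the 9 genes in every library, in CPM on a log axis, with 1 panel per gene, ages from E13.5 to PND 0, KO in red to the left of WT in blue, bars at the group mean and open points at the foot of a panel for libraries with 0 counts. The embryonic globins drop at each step, and the single high E15.5 point of each genotype for Slc4a1 and the adult globins is replicate 2.

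Levels can be set between genes only per length, as CPM per kilobase of exon. This scale takes no account of reads shared within the adult pairs, so ranks of adult against embryonic genes are uncertain. On that scale Hbb-y led in E13.5 KO libraries at 2200 ± 380 and in E13.5 WT libraries at 1252 ± 780 (SD, n = 2 and 3). Hba-a1 came next in E13.5 KO libraries at 1011 ± 295, and in E13.5 WT libraries Hba-a1 at 1051 ± 124 and Hbb-bs at 953 ± 221 did not differ from Hbb-y beyond the spread. At E15.5 the order had turned, with Hbb-bs at 2413 ± 1458 in KO libraries and 2248 ± 800 in WT libraries (n = 3 each) and Hbb-y at 48.8 ± 23.9 in KO libraries and 38.7 ± 12.2 in WT libraries. Hba-a1, at 1908 ± 1326 in E15.5 KO libraries and 1746 ± 699 in E15.5 WT libraries, did not differ from Hbb-bs beyond this spread. Alas2 and Slc4a1 were well below the main globins, at 46.4 ± 27.0 and 23.9 ± 29.9 in E15.5 KO libraries and at 40.4 ± 16.4 and 22.4 ± 25.0 in E15.5 WT libraries. On this scale the lowest detected member at PND 0 was Hbb-y in KO libraries at 0.0245 ± 0.0424 and Hba-x in WT libraries at 0.168 ± 0.212.

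Between E13.5 and E15.5 the embryonic globins fell and most of the adult globins rose in both genotypes. Calls rest on the edgeR quasi-likelihood test with Benjamini-Hochberg adjustment over 18635 tested genes, and needed both an adjusted p under 0.05 and at least a 1.5-fold change. Of the 9 genes, 7 were called in KO testes, 4 higher and 3 lower, where 16.0% of all tested genes were called (11.0% higher, 4.98% lower). In WT testes 7 were called, where the background was 11.9% (8.67% higher, 3.26% lower), and all 7 were shared with KO testes in the same direction. Hbb-y fell 45.1-fold in KO testes (log2 change −5.50, SE 0.50, edgeR adjusted p = 1.27e-06) and 32.4-fold in WT testes (log2 change −5.02, SE 0.48, edgeR adjusted p = 1.66e-05). Hba-x fell 26.5-fold in KO testes (log2 change −4.73, SE 0.41, edgeR adjusted p = 7.42e-07) and 16-fold in WT testes (log2 change −4.00, SE 0.39, edgeR adjusted p = 1.69e-05). Hbb-bh1 fell 30.1-fold in KO testes (log2 change −4.91, SE 0.54, edgeR adjusted p = 4.08e-05) and 34.5-fold in WT testes (log2 change −5.11, SE 0.57, edgeR adjusted p = 0.00011). The embryonic genes of both clusters thus fell in both genotypes.

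Hbb-bs rose by 2.22 on the log2 scale in KO testes (SE 0.40, edgeR adjusted p = 0.000655) and by 1.24 in WT testes (SE 0.33, edgeR adjusted p = 0.013). Alas2 rose by 1.45 in KO testes (SE 0.37, edgeR adjusted p = 0.00752) and by 1.06 in WT testes (SE 0.32, edgeR adjusted p = 0.0227). Hbb-bt and Hba-a2 were also called higher, by 1.79 (edgeR adjusted p = 0.0223) and 1.13 (adjusted p = 0.034) in KO testes and by 1.66 (adjusted p = 0.0177) and 1.02 (adjusted p = 0.0334) in WT testes. Hba-a1 did not pass, with a log2 change of 0.92 in KO testes (edgeR adjusted p = 0.128) and 0.73 in WT testes (edgeR adjusted p = 0.178). Slc4a1 did not pass either, at 1.10 in KO testes (edgeR adjusted p = 0.36) and 0.82 in WT testes (edgeR adjusted p = 0.454). The rises were smaller without the E15.5 replicate 2 pair, an alternative chosen after seeing the data. Hbb-bs then rose by 1.60 in KO testes (edgeR adjusted p = 0.000336) and by 0.91 in WT testes (edgeR adjusted p = 0.00858), and Alas2 by 0.86 in KO testes (edgeR adjusted p = 0.00366) and by 0.68 in WT testes (edgeR adjusted p = 0.0104). Hba-a2, at 0.52, and Hbb-bt, at 0.88, were no longer called in KO testes (edgeR adjusted p = 0.164 and 0.0691), while in WT testes they stayed called at 0.77 and 1.13 (adjusted p = 0.033 and 0.0168). Slc4a1 turned round without the pair: it was called lower at E15.5 in KO testes, at −0.76 (edgeR adjusted p = 0.0351), and had a log2 change of −0.66 in WT testes (edgeR adjusted p = 0.054). The WT calls of Hbb-bs, Hba-a2, Hbb-bt and Alas2 were each lost when E13.5 WT replicate 1, E13.5 WT replicate 2 or E15.5 WT replicate 2 was left out, which left 3 calls. Leaving out E13.5 KO replicate 2 likewise left 4 calls in KO testes, those of Hba-a2, Hbb-bt and Alas2 being lost.

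Between E15.5 and birth all 9 genes fell in both genotypes, where 10.2% of tested genes were called lower in KO testes (19.7% in either direction) and 10.7% in WT testes (21.4% in either direction). Hbb-bs fell by 2.78 on the log2 scale in KO testes (SE 0.35, edgeR adjusted p = 1.62e-05) and by 3.04 in WT testes (SE 0.36, edgeR adjusted p = 7.66e-06). Alas2 fell by 2.46 in KO testes and by 2.61 in WT testes, and Hba-a1 by 2.86 in KO testes and by 2.95 in WT testes. Slc4a1 fell furthest among the 6 genes that kept a measurable level, by 6.0 in KO testes (SE 1.04, edgeR adjusted p = 0.000285) and by 5.72 in WT testes (SE 1.02, edgeR adjusted p = 0.000331). Without the pair its fall was 4.14 in KO testes and 4.24 in WT testes. Summed over 3 libraries, Hbb-y had 1 count at PND 0 against 2018 counts at E15.5 in KO testes, a 1960-fold lower level (95% counting interval 351 to 77300), and 16 counts at PND 0 against 1638 counts at E15.5 in WT testes, a 99.4-fold lower level (61 to 174). Hba-x had 4 counts at PND 0 against 1564 counts at E15.5 in KO testes, 379-fold lower (148 to 1390), and 10 counts at PND 0 against 1337 counts at E15.5 in WT testes, 130-fold lower (70.3 to 271). Hbb-bh1, with 0 counts at PND 0, was at least 19.4-fold lower in KO testes and at least 9.71-fold lower in WT testes, taking 3 counts over the group as the floor. These intervals and bounds cover counting error only, and the ratios rest on single libraries. PND 0 WT replicate 3 held 12 of the 16 Hbb-y counts and 8 of the 10 Hba-x counts, and without it Hbb-y was 269-fold lower (105 to 988) and Hba-x 439-fold lower (121 to 3630) in WT testes. Without PND 0 WT replicate 2 Hba-x was 85.5-fold lower (46.4 to 179). In KO testes the only Hbb-y count and 3 of the 4 Hba-x counts were in PND 0 replicate 1, and without it Hbb-y was at least 432-fold lower and Hba-x 1000-fold lower (180 to 39700). These ratios without 1 library, like those without the E15.5 pair, were added after seeing the data. Without the pair, 9 genes were called lower in KO testes, where 10.1% of all tested genes were, and 8 in WT testes, where 9.23% were, since Hbb-bh1 missed there (edgeR adjusted p = 0.0789).

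**Figure D3:**
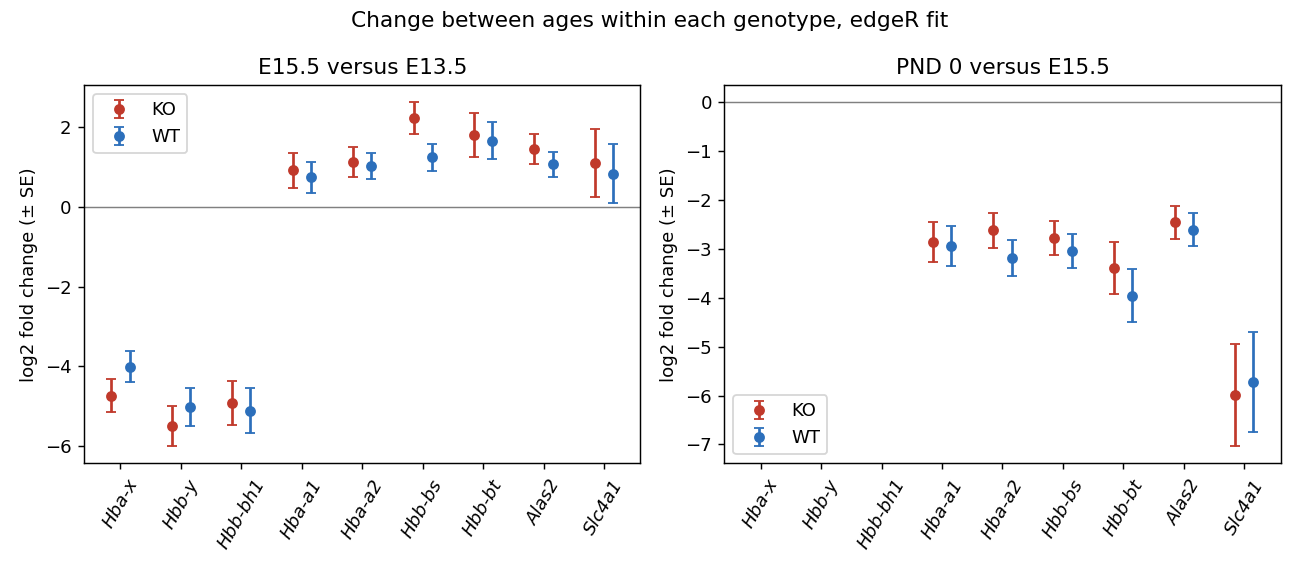
Log2 change (point) with its standard error (bar) for each of the 9 genes between E13.5 and E15.5 and between E15.5 and PND 0, with KO in red to the left of WT in blue. Hba-x, Hbb-y and Hbb-bh1 are left out of the PND 0 panel because their counts were near 0 there. In the E15.5 panel the embryonic globins lie between −5.50 and −4.00 and the other 6 genes above 0, and in the PND 0 panel all plotted genes lie below 0.

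No member was called between KO and WT testes at any age. At E13.5, 0 of 9 genes were called, where 2.87% of all tested genes were. At E15.5 it was 0 of 9 with a background of 0.445%, and at PND 0 it was 0 of 9 with a background of 1.93%. DESeq2 and limma voom also called 0 of 9 at each age. At an unadjusted p below 0.05 there were 2 of 9 genes at E13.5, where 16.2% of all genes passed, 0 of 9 at E15.5 (11.6% of all genes) and 0 of 9 at PND 0 (24.3% of all genes).

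The 2 genes at E13.5 were Hba-x and Hbb-bs, and they lay on opposite sides. Hba-x averaged 634 ± 73 CPM in KO libraries and 321 ± 173 CPM in WT libraries (SD, n = 2 and 3), a log2 difference of 0.98 (SE 0.37, 95% interval 0.20 to 1.76, edgeR adjusted p = 0.176). Hbb-bs averaged 399 ± 137 CPM in KO libraries and 732 ± 170 CPM in WT libraries, a log2 difference of −0.88 (SE 0.38, 95% interval −1.68 to −0.07, edgeR adjusted p = 0.255). In both cases the KO and WT libraries did not overlap, as held for 36.0% of all tested genes. Hbb-y, at 0.81 (SE 0.44, edgeR adjusted p = 0.39), and Hbb-bh1, at 0.82 (SE 0.44, edgeR adjusted p = 0.409), overlapped between the genotypes. The log2 differences of the other genes were −0.05 for Hba-a1, −0.22 for Hba-a2, −0.39 for Hbb-bt, −0.18 for Alas2 and −0.18 for Slc4a1 (edgeR adjusted p 0.80 to 0.98). The result for the embryonic genes rested in part on E13.5 WT replicate 2: without it, Hba-x (1.40, edgeR adjusted p = 0.0386) and Hbb-bh1 (1.58, edgeR adjusted p = 0.0171) were called. Over 16 alternatives the log2 difference of Hba-x ran from 0.62 to 1.40 with adjusted p from 0.0386 to 0.543, and that of Hbb-bs from −1.28 to −0.57 with adjusted p from 0.0471 to 0.742. At E15.5 the adjusted p of the 9 genes was 0.633 to 0.979, and at PND 0 it was 0.474 to 1. The difference between ages in the genotype effect passed for 0 of 9 genes in each of the 3 pairs of ages, where 0.0215% to 2.17% of all genes passed. Hbb-bs had the lowest unadjusted p of these, with an effect higher by 1.24 at PND 0 than at E13.5 (SE 0.50, edgeR adjusted p = 0.211).

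**Figure D4:**
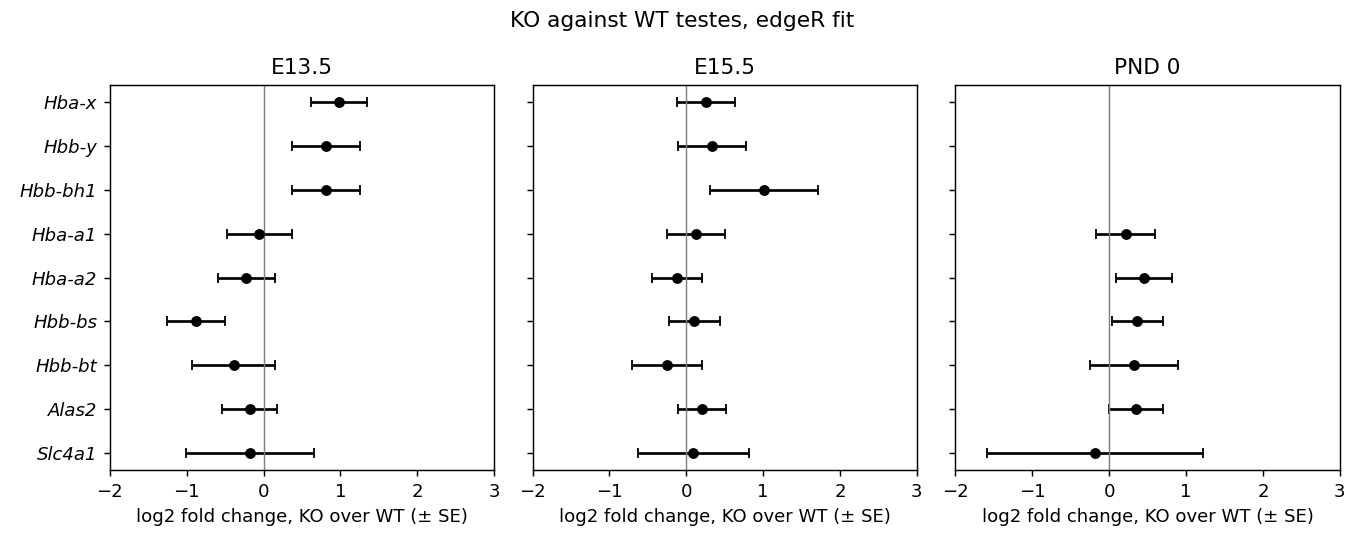
Log2 difference of KO over WT testes (point) with its standard error (bar) for each of the 9 genes, with 1 panel per age, where values above 0 are higher in KO. Hba-x, Hbb-y and Hbb-bh1 are left out of the PND 0 panel because their counts were near 0. At E13.5 Hba-x lies at 0.98 and Hbb-bs at −0.88, on opposite sides of 0, and no gene passed after adjustment.

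The share of embryonic chains within a library was taken from the globin counts alone and sets the members against each other. Its size depends on how reads shared within the adult pairs were counted, which is not given. Hbb-y and Hbb-bh1 made up 74.7% and 79.7% of the beta-type globin counts in E13.5 KO libraries, against 53.9%, 66.8% and 23.9% in E13.5 WT libraries. The means were 77.2 ± 3.51% in KO and 48.2 ± 22.02% in WT libraries (SD, n = 2 and 3), a difference of 29.0 percentage points that ran from 16.8 to 38.3 points as single E13.5 libraries were left out. Both KO libraries lay above all 3 WT libraries, and the WT libraries differed among themselves by more than the means did. In CPM, KO and WT libraries did not overlap, in either direction, for 36.0% of all tested genes at E13.5. Hba-x made up 35.3% and 49.2% of the alpha-type counts in E13.5 KO libraries, against 28.6%, 31.6% and 13.4% in E13.5 WT libraries. The alpha and beta shares put the 5 libraries in 1 order, from WT replicate 3 up through WT replicates 1 and 2 to KO replicates 1 and 2. Hmga2, a chromatin protein of growing embryonic tissues whose level falls with age here, had the same order, with 694.3 and 740.2 CPM in KO replicates 1 and 2, against 286.0, 460.6 and 558.1 CPM in WT replicates 3, 1 and 2. Its log2 difference was 0.72 (edgeR adjusted p = 0.111). Of 15380 genes, Hmga2 was also the closest to Hbb-y over these same 17 libraries (Pearson correlation 0.99 on log2 CPM). The shared order is therefore not an independent observation, and the part of developmental stage in the globin shares was not tested.

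By E15.5 the embryonic share was small in every library. For beta chains it was 3.27%, 1.18% and 1.07% in KO libraries, against 2.13%, 0.969% and 1.15% in WT libraries. For alpha chains it was 2.63%, 1.03% and 1.17% in KO libraries, against 1.78%, 0.883% and 1.42% in WT libraries. Replicate 1 was the highest of each genotype on both measures, and the genotypes overlapped. The replicate 2 pair, far above the others in adult globins, had shares of 1.18% in KO and 0.969% in WT for beta chains, within or below the range of the rest. At PND 0 the beta share was 0.0153% in KO replicate 1 and 0 in KO replicates 2 and 3, where 3 counts, the floor used for a count of 0, would be 0.0633% and 0.0459%, against 0.0182%, 0.0777% and 0.255% in WT libraries. These last shares rest on 0 to 12 counts of Hbb-y.

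**Figure D5:**
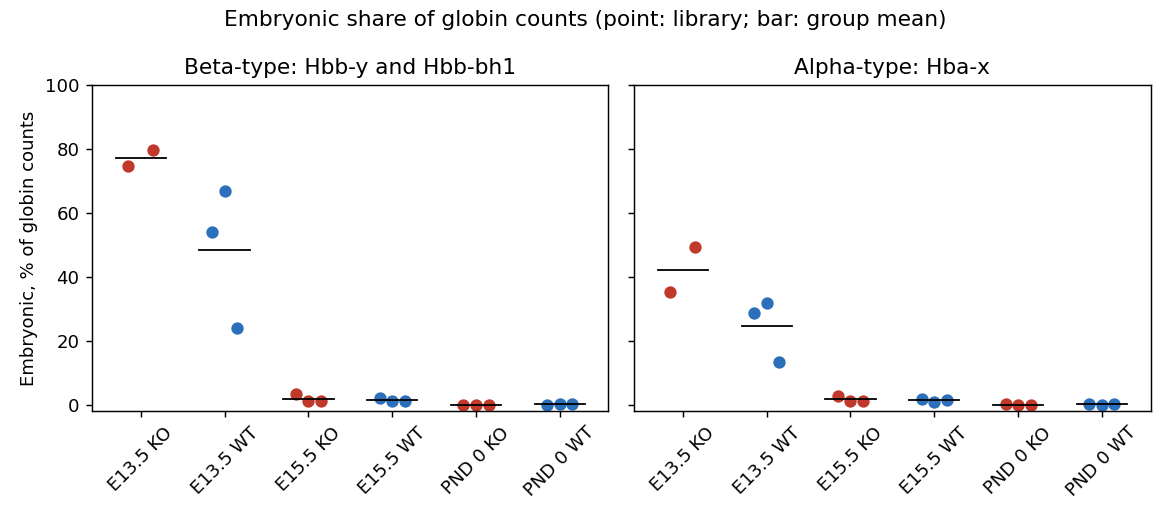
Embryonic share of beta-type (Hbb-y and Hbb-bh1) and alpha-type (Hba-x) globin counts in each library, in percent, by age from E13.5 to PND 0, with 1 point per library, KO in red to the left of WT in blue and bars at the group mean. At E13.5 the 2 KO points lie at 74.7% and 79.7% for beta chains with the 3 WT points between 23.9% and 66.8%, and by E15.5 all points lie under 4%.

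The other members were set against Hbb-bs in the same way, as counts per 1000 counts of Hbb-bs. Hba-a1 had 2001 and 2158 in E13.5 KO libraries, against 1185, 1560 and 887.6 in E13.5 WT libraries. Alas2 had 93.0 and 118.3 in E13.5 KO libraries, against 64.9, 71.5 and 56.9 in E13.5 WT libraries. Slc4a1 had 113.6 and 175.0 in E13.5 KO libraries, against 72.6, 82.6 and 94.2 in E13.5 WT libraries. All 3 ratios were higher in both KO libraries than in any WT library, and Hbb-bs itself, the denominator, was lower in them. In CPM, Hba-a1, Alas2 and Slc4a1 each overlapped between the genotypes at E13.5. The 3 ratios share 1 denominator and are not separate results. In CPM, KO and WT libraries did not overlap for 36.0% of all tested genes at that age. At E15.5 Slc4a1 had 26.4, 90.7 and 27.1 in KO libraries, against 33.5, 102.8 and 23.5 in WT libraries. The pair thus held more Slc4a1 for its Hbb-bs than any other E15.5 library, though not more than the E13.5 KO libraries. PND 0 left Slc4a1 at 6.20, 7.0 and 7.14 in KO libraries, against 9.03, 9.32 and 11.5 in WT libraries.

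The wider erythroid list, 36 tested genes for the red cell membrane, skeleton, surface receptors and transcription factors, gave few calls between genotypes. At E13.5, 0 of 36 were called higher and 1 lower in KO testes, a share near the 2.33% of all tested genes called lower, with a median log2 difference of −0.42 against −0.0031 over all genes. That gene was Sptb, the beta spectrin of the red cell skeleton, which averaged 26.2 CPM in KO libraries and 54.3 CPM in WT libraries (log2 difference −1.05, SE 0.24, edgeR adjusted p = 0.0168). At E15.5 and PND 0 none of the 36 were called, with medians of 0.12 and −0.13, and without the E15.5 pair the E15.5 median was −0.21 over 35 genes, with 0 called. Of 20 genes of heme synthesis and use, Alas1, the housekeeping counterpart of Alas2 that steroid-making cells also need, was lower in KO testes at E13.5, at 88.4 and 84.5 CPM in KO libraries, against 329.9, 233.6 and 343.4 CPM in WT libraries (log2 difference −1.81, SE 0.36, edgeR adjusted p = 0.00632). Markers of other cells moved with genotype at that age. All 7 genes of the Leydig cell list were called lower, with a summed level of 192.2 to 202.3 CPM in KO libraries, against 2567 to 4651 CPM in WT libraries. Endothelial markers summed to 1170 to 1214 CPM in KO libraries, against 909.6 to 1001 CPM in WT libraries. Of these 16 markers 1 was called higher (Cldn5), where 0.531% of all tested genes were. Of 5 mesonephros and epididymis markers 0 were called higher and 1 lower (Pax2), where 2.33% of all tested genes were called lower. Their median log2 difference was 0.06. In the other lists Cldn11, Aard and Nanos2 were called lower, and the part of these cells in the globin values was not tested. At PND 0 1 of the 20 heme genes was called higher, where 0.451% of all tested genes were. It was Hmox1, the enzyme that breaks heme down, at 114.9, 158.5 and 200.9 CPM in KO libraries, against 100.9, 87.7 and 101.2 CPM in WT libraries (log2 difference 0.71, SE 0.14, edgeR adjusted p = 0.0166).

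Regulators of the globin switch, 15 genes, gave 0 calls between genotypes at E13.5 and E15.5. Bcl11a, which silences embryonic and fetal globin genes, averaged 19.3 CPM in E13.5 KO libraries and 14.4 CPM in E13.5 WT libraries (log2 difference 0.42, edgeR adjusted p = 0.301). At PND 0 the RNA-binding protein gene Igf2bp1 was the 1 of 15 called lower, where 1.48% of all tested genes were, at a mean of 12.1 CPM in KO libraries and 18.8 CPM in WT libraries (log2 difference −0.64, edgeR adjusted p = 0.022). At E15.5 against E13.5, 1 of 15 was called higher and 7 lower in KO testes, where 11.0% of all tested genes were called higher and 4.98% lower. In WT testes 1 was called higher and 6 lower, where 8.67% of all genes were higher and 3.26% lower. Zfpm1, a partner of Gata1, was the 1 higher in each genotype. Bcl11a, Myb, Lin28b, Igf2bp1, Igf2bp3 and Hmga2 fell in both genotypes, and Sox6 was called in KO testes only, a difference that was not tested. Hmga2 fell by 2.91 in KO testes (edgeR adjusted p = 5.35e-07) and by 2.05 in WT testes (edgeR adjusted p = 3.21e-05). Bcl11a averaged 9.50 CPM at E15.5 and 19.3 CPM at E13.5 in KO testes, and 7.83 CPM at E15.5 and 14.4 CPM at E13.5 in WT testes. These regulators are expressed by many cells of a testis and were measured in the whole organ.

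The erythroid list depended on the pair when ages were compared. At E15.5 against E13.5, 5 of 36 genes were called higher and 0 lower in KO testes (median log2 change 1.06) and 4 higher and 0 lower in WT testes (median 0.42), shares near the 11.0% and 8.67% of all tested genes called higher. Sptb, Rhd and Cd44 were among those called in both genotypes, and Tspan33 was called in KO testes. Without the pair 35 genes were tested, and 4 were higher and 7 lower in KO testes (median −0.29), where 10.7% of all tested genes were called higher and 4.47% lower. In WT testes 3 were then higher and 11 lower (median −0.47), where 7.60% of all genes were called higher and 2.96% lower. The genes called lower in both genotypes without the pair were Ank1 (ankyrin of the red cell skeleton), Add2 (beta adducin), Icam4 (a surface ligand), Tal1 (a transcription factor of blood cells) and Mfsd2b (a lipid exporter). Sptb stayed higher, by 1.73 in KO testes (edgeR adjusted p = 7.15e-05) and by 0.83 in WT testes (edgeR adjusted p = 0.00595). Of the 20 heme genes, 5 were called higher at E15.5 in KO testes (Alas1, Fech, Slc6a9, Blvrb and Hp), where 11.0% of all tested genes were, and 0 in WT testes, where 8.67% were. Without the pair 3 of the 20 were called higher in KO testes, where 10.7% of all genes were, and 0 in WT testes, and the difference between genotypes in these counts was not tested. From E15.5 to birth, 1 gene of the erythroid list was called higher and 25 lower in KO testes (median −2.13), where 9.57% of all tested genes were called higher and 10.2% lower. In WT testes 1 was called higher and 18 lower (median −1.64), where 10.7% of all genes were called in each direction, and Cd44 was the 1 higher in each genotype. Without the pair 2 of 35 were higher and 16 lower in KO testes (median −0.72), where 8.59% of all genes were called higher and 10.1% lower. In WT testes 1 was then higher and 16 lower (median −0.55), where 9.03% of all genes were called higher and 9.23% lower.

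Across the 17 libraries the members followed each other in 2 sets. Hba-x and Hbb-y had a Pearson correlation of 0.995 on log2 CPM, and Hbb-bs and Alas2 one of 0.981, while Hbb-y and Hbb-bs had one of 0.497. With the mean of each age and genotype taken away, these were 0.838, 0.967 and 0.031. Libraries of 1 age share their stage, so these values describe the pattern and carry no test. Among 15380 genes with a mean of at least 1 CPM, 4 of the 5 closest to Hbb-bs were Kctd7 (0.94), Mvd (0.93), the blood group gene Rhd (0.92) and Stard4 (0.92), a carrier of cholesterol. Those closest to Hbb-y were Hmga2, Dkk1 and Plcb2 at 0.99, with Asic1 and Natd1 at 0.98. On deviations from the group means, which leave age and genotype out, 4 of the 5 genes closest to Hbb-bs were the erythropoietin receptor gene Epor (0.92), Trim10 (0.91), the last enzyme of heme synthesis Fech (0.91) and Blvrb (0.91). Replicate 2 of E15.5 KO held the largest deviation of Hbb-bs, so this set was measured with that library in it.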

How the data were processed

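RNA was taken from whole testes. Per the paper's methods the reads were paired 100-base reads (DNBSEQ-G400), aligned to GRCm38 with STAR through the RNAsik pipeline and counted per gene with featureCounts, and the submitters' processing notes name GENCODE M21. The deposited values are raw counts per gene, made by the authors without normalization. Whether counting used strand is not given in the sources used here.

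Genes with low counts were removed (filterByExpr, 18635 kept), and edgeR 4.0.16 (R 4.3.3) was used with TMM scaling and a quasi-likelihood model over 6 groups of age and genotype. Adjusted p-values are Benjamini-Hochberg over all tested genes, and a call needed at least a 1.5-fold change with an adjusted p under 0.05. The authors' own comparison used limma voom. Alternatives were DESeq2 1.42.0, limma 3.58.1 voom, other scalings and filters, a replicate block and leaving out libraries. Shares have exact binomial (Clopper-Pearson) intervals of 95% in the tables, for counting error only. Totals of 21020002 to 22166752 counts per library set the depth.

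Named genes were the 9 members, list genes that were called, and the 5 genes most like Hbb-bs or Hbb-y. Of the genes this rule named, 2 are not reported here. Other list genes were named after their values were seen. The members and lists were chosen with earlier results of these data known. Of the lists, Ahsp, Hbb-b1 and Hbb-b2 matched no name, and Hbq1a, Hbb-bh2, Timd4, Crisp1 and Lcn8 matched no gene of the count table. Car1, Gp6, Wnt9b, Serpina1a and Fgb failed the filter. Counts of duplicate-like libraries were checked, and no 2 replicates agreed within sampling noise. The model code was tested on simulated data. Figures used Python 3.11.15 and matplotlib 3.10.9.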

Additional observations from a re-analysis of the deposited data

How the results depend on the processing

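Of 1715 values for single genes under alternatives, 1667 kept their side of the threshold without a called change of direction, 42 lost a call, 3 gained one and 3 reversed. Among the 1667, 87 changed sign where neither value was called. The leading numbers of the titles were not taken to pair the libraries, under a rule that every pair had to exceed a correlation of 0.1. The correlation of deviations between a KO and a WT library of 1 number was 0.09 at E15.5 and 0.144 and 0.165 at PND 0. This rule cannot tell whether libraries of 1 number shared a litter. With the leading number as a replicate block, 1 of 9 genes was called between KO and WT at E13.5 (Hbb-bs, −0.88, edgeR adjusted p = 0.0471). At PND 0 against E15.5 in KO testes 4 members were called. Slc4a1 at E15.5 against E13.5 reversed to −0.67 in KO testes (edgeR adjusted p = 0.0487) and −0.74 in WT testes (edgeR adjusted p = 0.0209). The block of number 4138 held only the E15.5 replicate 2 pair, so this reversal overlaps with the one seen when that pair was left out. Over all genes the block left 4 calls between KO and WT at PND 0, against 360 without it. Only PND 0 KO replicates 2 and 3 carried the number 4295, so this block took up part of the genotype difference at PND 0. The lower counts of calls with PND 0 KO libraries therefore cannot be read as the result of a batch adjustment. Without the E15.5 replicate 2 pair Slc4a1 reversed to −0.76 in KO testes.

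Leaving out 1 library gave 0 to 2 members called between KO and WT at E13.5, 4 to 7 at E15.5 against E13.5 in KO testes, 3 to 7 in WT testes, and 8 to 9 at PND 0 against E15.5 in WT testes. A log2 limit of 1.5 left 4 members called at E15.5 against E13.5 in WT testes. With limma voom 8 of 9 passed at PND 0 against E15.5 in WT testes (Hbb-bh1 adjusted p = 0.0896). Spearman correlation shared 1 of the 5 genes most like Hbb-bs, 1 of those most like Hbb-y and 3 of those by deviations, and scaling by library totals alone shared 3 of 5 for Hbb-y. Over all genes, calls between KO and WT were 534 at E13.5 (430 to 625 over methods), 83 at E15.5 (81 to 162) and 360 at PND 0 (4 to 516). The 4 calls at PND 0 came with the replicate block, which overlapped with genotype there. Leaving out single libraries gave 299 to 633, 30 to 305 and 36 to 1093 calls at these ages. No scaling moved the split of higher and lower calls by over 10 points. At a group size of 2 or 3, and with Hbb-bh1, Hbb-y and Hba-x near 0 counts at PND 0, small differences were not detectable at this depth.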

Other observations

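Hbb-bh0, an annotated gene of the beta cluster between Hbb-y and Hbb-bh1, was called lower with the embryonic globins at E15.5 against E13.5, on few counts. Summed over libraries it had 7 counts at E15.5 and 108 counts at E13.5 in KO testes, a 23.1-fold lower level per library size (95% counting interval 10.8 to 58.9, edgeR adjusted p = 0.000992), and 3 counts at E15.5 and 111 counts at E13.5 in WT testes, a 38.2-fold lower level (12.7 to 188, edgeR adjusted p = 0.00131). Cygb, a globin of stromal cells that is no part of the clusters, had a log2 difference of 0.34 between KO and WT testes at E15.5 (edgeR adjusted p = 0.0353), under the 1.5-fold limit. Of the 5 tested genes of the other globins, 0 were called between genotypes at any age.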
